A study of Mus musculus with 17 samples.

Results

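Cdk9, Ccnt1, Ccnt2, Hexim1, Larp7, Ell, Ell2, Aff4 and Supt5 encode the kinase, cyclins, inhibitors and partner factors that release RNA polymerase II from its pause near the promoter. They were chosen by name, as the core of P-TEFb, of the 7SK particle that holds it and of the elongation factors it acts with, and all 9 were found among the 25899 gene symbols of the deposited count table. P-TEFb is CDK9 bound to a cyclin T (Ccnt1 or Ccnt2). It phosphorylates the polymerase's C-terminal domain and the pausing factors DSIF and NELF, after which the polymerase moves into the gene body. A large share of P-TEFb is kept inactive in a particle built on 7SK RNA, in which HEXIM1 blocks the kinase and LARP7 binds and stabilises the RNA. Released P-TEFb works on its own or in the super elongation complex, where AFF4 is the scaffold and ELL or ELL2 raises the rate of elongation. SPT5, encoded by Supt5, is the large subunit of DSIF. In embryonic stem cells, pause release is the step at which many signal-responsive genes are known to be controlled.

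New RNA, labelled in the last 15 minutes of culture with 5 mM ethynyl uridine and captured by click chemistry, was sequenced from 17 libraries of mouse embryonic stem cells, derived from E14tg2a on a 129SV background. All groups shared 1 genotype. Erk1 and Erk2 were knocked out, FLAG-ERK2 Q103A, which the inhibitor PP1 can block, was expressed in their place, and cRAF-ErT2 let 4-hydroxytamoxifen (4OHT) activate RAF. All cells were grown with 2 µM Chir99021 and LIF in serum and then kept for 24 h in serum, LIF and 250 nM PD173074, an FGF receptor inhibitor. The groups were PP1+4OHT (2 µM PP1 to block the mutant ERK2, and 250 nM 4OHT for 2 h), MEKi+4OHT (1 µM of a MEK inhibitor, and the same 4OHT), 4OHT with DMSO as vehicle, PP1, MEKi, and untreated DMSO cells at 0 h. Each group held clones a, b and c of the 1 line, except DMSO, which held clones b and c. The time that cells spent in an inhibitor without 4OHT is not clear from the labels, and the MEK inhibitor's code is spelled in different ways in the sources. As the replicates are clones of 1 line, a p-value rests on the spread between clones and not between independent lines. The comparisons of 4OHT cells with their own controls address the new RNA of these genes after 2 h of 4OHT, given to activate the ERK pathway. The inhibitor arms address whether MEK and ERK2 activity are needed. The counts of all groups without 4OHT are labelled 0 h, and those of all groups with it 2 h. What is called a 4OHT effect here, and any difference between such effects, therefore cannot be told apart from time in culture or in inhibitor.

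Library totals ran from 5239690 to 11093390 counts. Levels are given as CPM (counts relative to library size) after TMM scaling, which sets the libraries so that most genes are level between them. The pathway readout Dusp6, a phosphatase gene induced by ERK, stood at 153, 149 and 162 CPM in PP1+4OHT libraries, 5.51, 5.89 and 5.20 CPM in MEKi+4OHT libraries, 274, 265 and 293 CPM in 4OHT libraries and 70.6 and 83.4 CPM in DMSO libraries. PP1+4OHT libraries thus lay between 4OHT and DMSO libraries, and MEKi+4OHT libraries below DMSO libraries. In the inhibitor controls without 4OHT, Dusp6 ran from 47.7 to 50.3 CPM with PP1 and from 20.4 to 31.1 CPM with MEKi. All PP1+4OHT libraries were therefore above all PP1 libraries, and all MEKi+4OHT libraries below all MEKi libraries. All 8 embryonic stem cell markers examined were present in every group, with summed levels between 2779 and 3765 CPM. Over DMSO, 3 of the 8 were lower with 4OHT and 1 higher, where 26.3% of all genes were lower and 25.7% higher. Nanog, a pluripotency factor, averaged 149.5 CPM in 4OHT libraries and 329 CPM in DMSO libraries. Tdgf1 averaged 226 and 411 CPM and Esrrb 887 and 1200 CPM in the same groups. Zfp42 went the other way, with 1134 and 717 CPM. Fibroblast (feeder) markers summed to 0.98 to 5.05 CPM, and Thy1, Dcn, Lum and Postn were under 1 CPM in every library. Markers of other fates were low and moved in both directions. The 7 primitive endoderm markers summed to 9.26 to 15.4 CPM in 4OHT libraries against 17.3 to 17.5 CPM in DMSO libraries, with 2 called lower and 0 higher of 6 tested. The 6 trophoblast markers summed to 15.2 to 24.6 CPM against 9.05 to 10.6 CPM, with 1 of 3 tested called, Cdx2, which averaged 6.22 CPM in 4OHT libraries and 0.0411 CPM in DMSO libraries. The 5 neuroectoderm markers summed to 26.3 to 34.8 CPM against 14.6 to 16.4 CPM, which was Nes (23.4 CPM against 4.77 CPM), while Pax6 was lower (5.04 CPM against 8.62 CPM). The part of these markers, and of the cell states they stand for, in the results was not tested. A set of 14 loci with very high counts took between 9.38% (4OHT clone a) and 42.0% (PP1 clone a) of a library, which changes any scaling by library totals and is taken up beside the results.

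The genes lie on 8 chromosomes of mm10, with GENCODE release M21 positions. Cdk9 spans chr2:32705784-32713076 on the minus strand (7293 bp), Ccnt1 chr15:98538689-98570923 on the minus strand (32235 bp) and Ccnt2 chr1:127774164-127808061 on the plus strand (33898 bp). Hexim1, at chr11:103116231-103119725 on the plus strand, has a span of 3495 bp that is all exon, so its reads cannot include intron. Larp7 covers chr3:127536714-127553349 on the minus strand (16636 bp). Ell lies at chr8:70539457-70592858 (53402 bp), Ell2 at chr13:75706757-75772364 (65608 bp) and Aff4 at chr11:53350833-53421830 (70998 bp), all on the plus strand, and Supt5 at chr7:28314891-28338746 on the minus strand (23856 bp). The strand setting of the counting is not given in the sources used here, so reads of overlapping genes cannot be told apart. For Larp7 these are the Mir302 and Mir367 microRNA genes on the opposite strand, for Ccnt1 9330020H09Rik, for Ell2 1700037F03Rik and for Supt5 Gm44709. On the gene's own strand Mir2861 and Mir3960 lie within Cdk9, Gm23127 and Gm48302 within Ell2, and Gm25930 and Mir6920 within Aff4. The feature that was counted is not known either, and the summed count of a gene rose with both its span (Spearman's rho 0.54 across 21203 genes) and its exon length (0.54). For this reason levels are compared between groups and not between genes.

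The promoters of Aff4 and Cdk9 are shown because these genes had the largest rises of the 9 with 4OHT over DMSO. Those of Ccnt1 and Ccnt2 were added after their values were seen, because they are the cyclin partners of CDK9. Each runs from 250 bases before to 50 bases after the gene's start in RefSeq (GRCm38.p6) and is written 5′ to 3′ on the gene's own strand. The RefSeq start of Ccnt2 is the GENCODE start given above, and those of the other 3 differ from the outer GENCODE end, by most for Ccnt1. Capitals mark CCGGAA, the core bound by ETS factors, and CACGTG, an E-box, on either strand.
Aff4 promoter, chr11:53350517-53350816, plus strand: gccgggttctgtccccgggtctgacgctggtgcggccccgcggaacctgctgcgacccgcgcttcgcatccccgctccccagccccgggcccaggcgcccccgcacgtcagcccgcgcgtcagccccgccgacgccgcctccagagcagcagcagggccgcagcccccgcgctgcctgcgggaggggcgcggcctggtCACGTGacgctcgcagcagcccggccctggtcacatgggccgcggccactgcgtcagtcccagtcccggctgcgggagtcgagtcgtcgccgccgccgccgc
Cdk9 promoter, chr2:32712735-32713034, minus strand: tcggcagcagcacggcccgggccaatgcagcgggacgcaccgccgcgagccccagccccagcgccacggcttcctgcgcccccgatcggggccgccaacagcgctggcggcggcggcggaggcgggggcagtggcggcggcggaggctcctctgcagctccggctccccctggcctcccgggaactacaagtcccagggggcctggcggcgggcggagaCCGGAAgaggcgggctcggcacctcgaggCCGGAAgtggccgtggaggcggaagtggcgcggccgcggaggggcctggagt
Ccnt1 promoter, chr15:98567687-98567986, minus strand: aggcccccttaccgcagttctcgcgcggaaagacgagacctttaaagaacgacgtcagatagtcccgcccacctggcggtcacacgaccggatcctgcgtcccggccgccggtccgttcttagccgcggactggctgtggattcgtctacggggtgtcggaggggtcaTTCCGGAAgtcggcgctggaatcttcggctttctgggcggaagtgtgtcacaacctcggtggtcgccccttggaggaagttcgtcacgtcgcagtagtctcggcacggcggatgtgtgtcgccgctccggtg
Ccnt2 promoter, chr1:127773914-127774213, plus strand: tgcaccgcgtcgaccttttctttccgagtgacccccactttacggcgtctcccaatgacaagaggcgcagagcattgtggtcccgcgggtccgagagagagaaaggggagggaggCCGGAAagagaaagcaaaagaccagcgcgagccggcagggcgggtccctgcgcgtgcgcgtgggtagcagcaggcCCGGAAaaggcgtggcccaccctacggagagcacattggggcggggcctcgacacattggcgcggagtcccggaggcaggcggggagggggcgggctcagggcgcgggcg

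Cdk9 held CCGGAA at 31 and 2 bases before its start, and Ccnt2 at 135 and 60 bases before it. In Ccnt1 a single TTCCGGAA reads as the core on both strands, so its 2 matches overlap. Aff4 held no CCGGAA in this window and 1 CACGTG, 52 bases before its start. The search covered all 9 members on both strands. CCGGAA was present in 3 of 9 (Cdk9, Ccnt1 and Ccnt2), against 14.9% of 32851 promoters of the same length. TGACGTCA, the cAMP response element, was in 2 of 9 (Larp7 and Ell2), against 1.79%, and CACGTG in 1 of 9, against 7.15%. GCGNGGGCG, bound by EGR factors, was in 2 of 9 (Ccnt2 and Aff4), against 5.55%, and GGGCGG, the GC box, in 8 of 9 (all but Aff4), against 35.7%. None of the 9 held TGANTCA (AP-1, 7.81% of all), TATAAA (13.6%) or a CArG box (1.63%). GCGNGGGCG and GGGCGG can overlap. A match is a string of letters in the window and not evidence that a factor binds there.

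With 4OHT alone, 6 of the 9 genes rose over DMSO and none fell. They were Aff4, Cdk9, Ell2, Ccnt1, Larp7 and Supt5, with fold changes between 1.23 and 1.98, while Ccnt2, Hexim1 and Ell did not pass the threshold (edgeR quasi-likelihood test, Benjamini-Hochberg adjusted p under 0.05 over 14907 genes). This was a broad response: 25.7% of all genes tested were higher and 26.3% lower, and 52% passed in either direction. The median log2 fold change of the 9 was 0.34, and that of all genes -0.02. Under TMM scaling the 4OHT effect on Aff4, Ell2 and Larp7 was lower with MEKi or PP1 than without inhibitor. With MEKi it was also lower for Cdk9, Ccnt1 and Ccnt2. Cdk9 and Ccnt1 still rose in PP1-treated cells. Their fitted rises were smaller than without inhibitor, but these differences did not pass the threshold. Whether the genes differ from each other in this was not tested. Dusp6 stayed above its DMSO level in PP1+4OHT libraries, so a full block of ERK2 output by PP1 was not shown. In bulk libraries, more cells that make an RNA and more RNA per cell cannot be told apart.

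**Figure D1:**
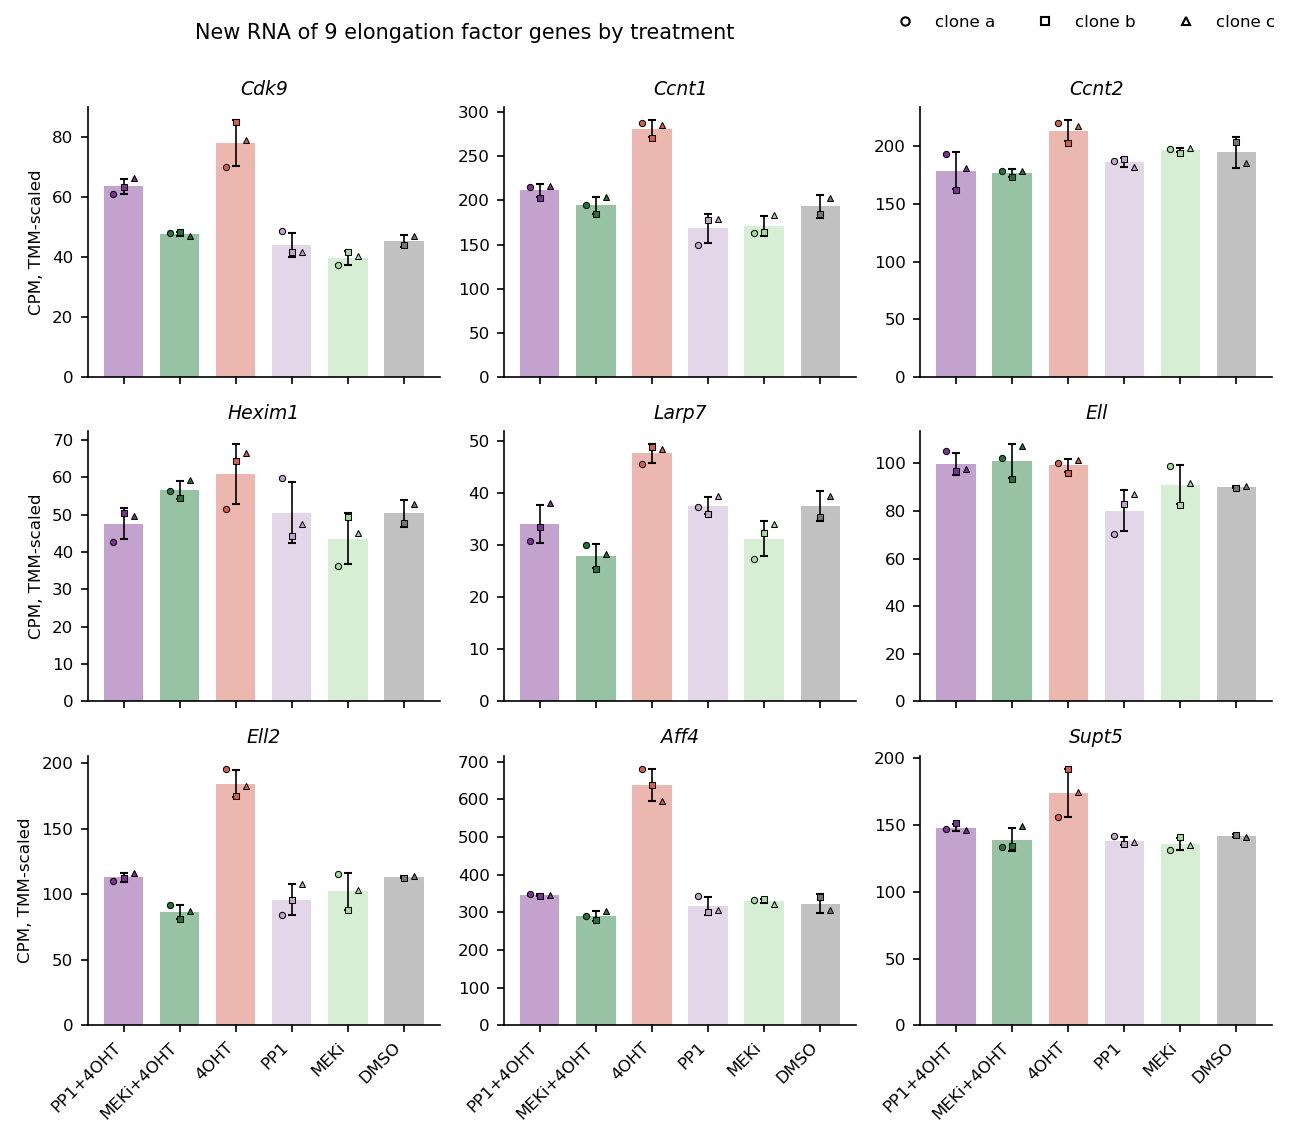
New RNA of the 9 genes, in TMM-scaled CPM, in each library of the 6 groups (symbols mark clones, bars the group mean, error bars the SD; n = 3, and 2 for DMSO). The 4OHT libraries of Aff4 (597 to 682 CPM) stand above all libraries of the other groups (279 to 349 CPM), while for Hexim1 and Ell the 4OHT libraries overlap those of other groups.

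Cdk9, the kinase of P-TEFb, had 69.9, 85.0 and 79.1 CPM in 4OHT clones a, b and c, against 43.8 and 46.9 CPM in DMSO clones b and c. With PP1 it had 61.0, 63.4 and 66.2 CPM in 4OHT-treated libraries, against 48.5, 41.6 and 41.5 CPM without 4OHT. With the MEK inhibitor the values were 48.0, 48.3 and 46.9 CPM with 4OHT, against 37.2, 41.5 and 40.2 CPM without it. All 4OHT libraries lay above all PP1+4OHT libraries, these above all MEKi+4OHT libraries, and in each arm the 4OHT-treated libraries lay above their own controls. Cdk9 rose 1.71-fold over DMSO (log2 0.78 ± 0.10, adjusted p = 4.6e-07, edgeR), higher in both clones that the groups share. In PP1-treated cells the rise was 1.46-fold (log2 0.55 ± 0.09, adjusted p = 8.1e-05), in all 3 clones. The smaller difference in MEKi-treated cells, log2 0.27 ± 0.09, passed the threshold narrowly (adjusted p = 0.048) and did so in none of the 6 fits that left out 1 of those libraries (adjusted p between 0.063 and 0.18). Set against the 4OHT effect without inhibitor, the effect was lower by 0.51 ± 0.13 on the log2 scale under MEKi (adjusted p = 0.0036), and the difference under PP1, -0.23 ± 0.13, did not pass (adjusted p = 0.21).

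Ccnt1 encodes cyclin T1, the main regulatory partner of CDK9. It had 288, 270 and 286 CPM in 4OHT libraries, against 184 and 203 CPM in DMSO libraries. PP1+4OHT libraries had 215, 203 and 216 CPM, against 150, 177 and 179 CPM with PP1, and MEKi+4OHT libraries 195, 185 and 204 CPM, against 164, 165 and 184 CPM with MEKi. The 4OHT libraries were again above every other library, and the 4OHT-treated libraries of each inhibitor were above its controls. The rise over DMSO was 1.46-fold (log2 0.54 ± 0.08, adjusted p = 7.6e-06), and with PP1 it was 1.25-fold (log2 0.32 ± 0.07, adjusted p = 0.0023), each in every clone that the groups share. With the MEK inhibitor the difference was log2 0.19 ± 0.07 (adjusted p = 0.091). Under MEKi the 4OHT effect was lower than without inhibitor by 0.35 ± 0.11 (adjusted p = 0.014), and under PP1 the difference was -0.22 ± 0.11 (adjusted p = 0.15).

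Ccnt2, which encodes cyclin T2, a second partner of CDK9, did not share this course. Its levels were 220, 203 and 218 CPM in 4OHT libraries, against 204 and 185 CPM in DMSO libraries. PP1+4OHT libraries had 194, 162 and 181 CPM, against 188, 189 and 182 CPM with PP1, and MEKi+4OHT libraries 179, 173 and 179 CPM, against 197, 195 and 199 CPM with MEKi. The 4OHT and DMSO libraries overlapped, and the 4OHT effect was log2 0.13 ± 0.08 (adjusted p = 0.15), higher in clone c (0.23) and level in clone b (-0.01). With DMSO clone b left out it was 0.24 (adjusted p = 0.049). All MEKi+4OHT libraries lay below all MEKi libraries, but the difference of log2 -0.16 ± 0.07 did not pass (adjusted p = 0.14). The 4OHT effect under MEKi was lower than without inhibitor by 0.29 ± 0.10 (adjusted p = 0.027), a call that was lost without DMSO clone c (adjusted p = 0.069).

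Hexim1, whose protein blocks CDK9 inside the 7SK particle, had 51.6, 64.3 and 66.6 CPM in 4OHT libraries, against 47.9 and 53.0 CPM in DMSO libraries. PP1+4OHT libraries had 42.7, 50.4 and 49.8 CPM, against 59.7, 44.2 and 47.5 CPM with PP1, and MEKi+4OHT libraries 56.3, 54.4 and 59.3 CPM, against 36.2, 49.4 and 45.2 CPM with MEKi. The 4OHT library of clone a lay within the DMSO range, and the libraries with and without 4OHT also overlapped in the PP1 arm, whereas in the MEKi arm they did not. Over DMSO the difference was log2 0.27 ± 0.13 (adjusted p = 0.097). It passed without 4OHT clone a (0.40, adjusted p = 0.021) and with clone as a replicate block (0.30, adjusted p = 0.045). In MEKi-treated cells Hexim1 rose 1.30-fold (log2 0.38 ± 0.12, adjusted p = 0.035, in 3 of 3 clones), the largest difference of the 9 genes in that arm. Of the 6 fits that left out 1 of its libraries, the call held in 1, without MEKi clone b, and the adjusted p ran from 0.025 to 0.20. The difference in PP1-treated cells was -0.06 ± 0.12 (adjusted p = 0.73), and none of the 3 differences between these effects passed for Hexim1.

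Larp7, which encodes the protein that binds and stabilises 7SK RNA, had 45.6, 48.8 and 48.4 CPM in 4OHT libraries, against 35.5 and 39.4 CPM in DMSO libraries. With PP1 its levels were 30.8, 33.5 and 38.0 CPM in 4OHT-treated libraries, against 37.3, 36.0 and 39.3 CPM without 4OHT. With MEKi they were 29.9, 25.4 and 28.3 CPM, against 27.4, 32.4 and 34.0 CPM. The 4OHT libraries were above every other library, and both inhibitor arms overlapped their controls. Larp7 rose 1.27-fold over DMSO (log2 0.34 ± 0.11, adjusted p = 0.014), a call lost without DMSO clone b (adjusted p = 0.10). The differences were -0.14 ± 0.11 in PP1-treated and -0.17 ± 0.11 in MEKi-treated cells (adjusted p = 0.32 and 0.33). Under PP1 the 4OHT effect was lower than without inhibitor by 0.49 ± 0.16 (adjusted p = 0.022), though not without PP1 clone c (0.054) or DMSO clone b (0.065). Under MEKi it was lower by 0.51 ± 0.16 (adjusted p = 0.011), in all 11 fits that left out 1 library. The opposite-strand Mir302 and Mir367 genes overlap Larp7, and their part in these counts was not tested.

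In the super elongation complex, the scaffold gene Aff4 changed more with 4OHT over DMSO than any other of the 9. It had 682, 638 and 597 CPM in 4OHT libraries, against 341 and 306 CPM in DMSO libraries. PP1+4OHT libraries had 349, 344 and 347 CPM, against 344, 302 and 306 CPM with PP1, and MEKi+4OHT libraries 290.1, 279 and 305 CPM, against 334, 334 and 324 CPM with MEKi. The 4OHT libraries stood far above the rest, and the other 5 groups lay between 279 and 349 CPM. Aff4 rose 1.98-fold over DMSO (log2 0.98 ± 0.08, adjusted p = 2.3e-10), at the 92.5th percentile of all genes tested. In PP1-treated cells the difference was 0.13 ± 0.07 (adjusted p = 0.14). In MEKi-treated cells Aff4 was lower with 4OHT in all 3 clones, by a log2 difference of -0.18 ± 0.07 that did not pass (adjusted p = 0.073), though it did with DESeq2 (-0.20, adjusted p = 0.032). The 4OHT effect was lower than without inhibitor by 0.85 ± 0.10 under PP1 (adjusted p = 1.3e-06) and by 1.16 ± 0.10 under MEKi (adjusted p = 3.1e-09).

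Ell2, an elongation factor that joins AFF4 in this complex, had 196, 175 and 182 CPM in 4OHT libraries, against 113 and 114 CPM in DMSO libraries. With PP1 it had 109.9, 113 and 116 CPM in 4OHT-treated libraries, against 84.2, 95.8 and 108 CPM without 4OHT, and with MEKi 91.6, 81.0 and 87.2 CPM, against 116, 87.7 and 103 CPM. Here too the 4OHT libraries were above all others. The PP1+4OHT libraries lay above the PP1 libraries, and those of the MEKi arm overlapped. The rise over DMSO was 1.63-fold (log2 0.71 ± 0.10, adjusted p = 2.7e-06). In PP1-treated cells the difference was 0.23 ± 0.09 (adjusted p = 0.065), which passed with clone as a block (adjusted p = 0.046), and in MEKi-treated cells it was -0.24 ± 0.09 (adjusted p = 0.081). Relative to the effect without inhibitor, the 4OHT effect was lower by 0.48 ± 0.14 under PP1 (adjusted p = 0.011) and by 0.95 ± 0.14 under MEKi (adjusted p = 5.4e-06).

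Ell, the paralogue of Ell2, was flat by comparison. It had 100.3, 96.2 and 101 CPM in 4OHT libraries, against 89.8 and 90.5 CPM in DMSO libraries. PP1+4OHT libraries had 105, 96.7 and 97.8 CPM, against 70.4, 82.8 and 87.0 CPM with PP1, and MEKi+4OHT libraries 102, 93.4 and 107 CPM, against 98.9, 82.4 and 91.8 CPM with MEKi. The 3 groups with 4OHT overlapped one another, the 4OHT libraries lay above the DMSO libraries by a small margin, and PP1 had the lowest mean. The differences were log2 0.14 ± 0.09 over DMSO (adjusted p = 0.22) and 0.15 ± 0.08 in MEKi-treated cells (adjusted p = 0.26). In PP1-treated cells Ell rose 1.24-fold (log2 0.31 ± 0.08, adjusted p = 0.0077), which was lost without PP1+4OHT clone a (0.23, adjusted p = 0.053). None of the 3 differences between the effects passed for Ell, so a response particular to PP1-treated cells was not shown.

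Supt5, the DSIF subunit that P-TEFb phosphorylates, had 156, 192 and 175 CPM in 4OHT libraries, against 143 and 141 CPM in DMSO libraries. PP1+4OHT libraries had 147, 151 and 146 CPM, against 142, 136 and 137 CPM with PP1, and MEKi+4OHT libraries 134, 134 and 149 CPM, against 132, 141 and 135 CPM with MEKi. The 4OHT libraries stood above all others, the PP1+4OHT libraries lay above the PP1 libraries, and the MEKi+4OHT and MEKi libraries overlapped. Supt5 rose 1.23-fold over DMSO (log2 0.29 ± 0.08, adjusted p = 0.0037). The differences were 0.10 ± 0.07 with PP1 (adjusted p = 0.31) and 0.03 ± 0.07 with MEKi (adjusted p = 0.81). The 4OHT effect under MEKi differed from that without inhibitor by -0.26 ± 0.11 (adjusted p = 0.059), and with clone as a block by -0.28 (adjusted p = 0.035).

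**Figure D2:**
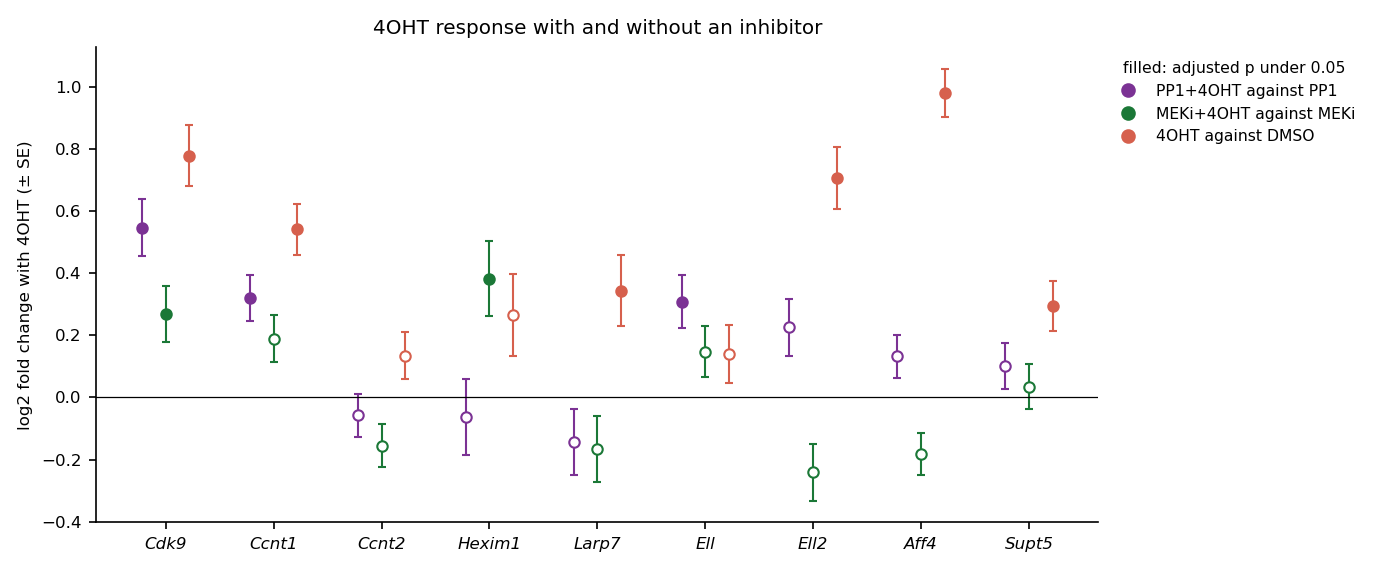
Log2 fold change ± SE of each gene between libraries with 4OHT and their own controls, in PP1-treated cells, in MEKi-treated cells and without inhibitor (filled where the edgeR adjusted p is under 0.05). Aff4 and Ell2 have wide gaps between the arms (Aff4 0.13, -0.18 and 0.98), while Cdk9 is above 0 in all 3.

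Counted over the 9 genes, 3 rose in PP1-treated cells (Cdk9, Ccnt1 and Ell) and none fell, where 18.4% of all genes were higher and 12.8% lower (31.3% together), and the median of the 9 was 0.13 against 0.00 for all genes. In MEKi-treated cells 2 rose (Cdk9 and Hexim1) and none fell, where 7.65% of all genes were higher and 7.03% lower (14.7% together), with a median of 0.03 against 0.00. The 4OHT effect was lower under PP1 than without inhibitor for 3 members (Aff4, Ell2 and Larp7) and higher for none, against 11.4% of all genes lower and 15.1% higher (26.5% together). Under MEKi it was lower for 6 (these and Cdk9, Ccnt1 and Ccnt2) and higher for none, against 19.3% of all genes lower and 21.1% higher (40.4% together). Both counts use the same 4OHT and DMSO libraries and are not independent of each other. Set directly against MEKi, the 4OHT effect under PP1 was higher for Ell2 (0.47 ± 0.13, adjusted p = 0.018) and Aff4 (0.32 ± 0.10, adjusted p = 0.031), against 7.41% of all genes higher and 4.86% lower (12.3% together). The Aff4 call was lost in most fits that left out 1 of the 12 libraries (highest adjusted p = 0.14) and the Ell2 call without MEKi+4OHT clone b (0.051) or MEKi clone a (0.066).

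**Figure D3:**
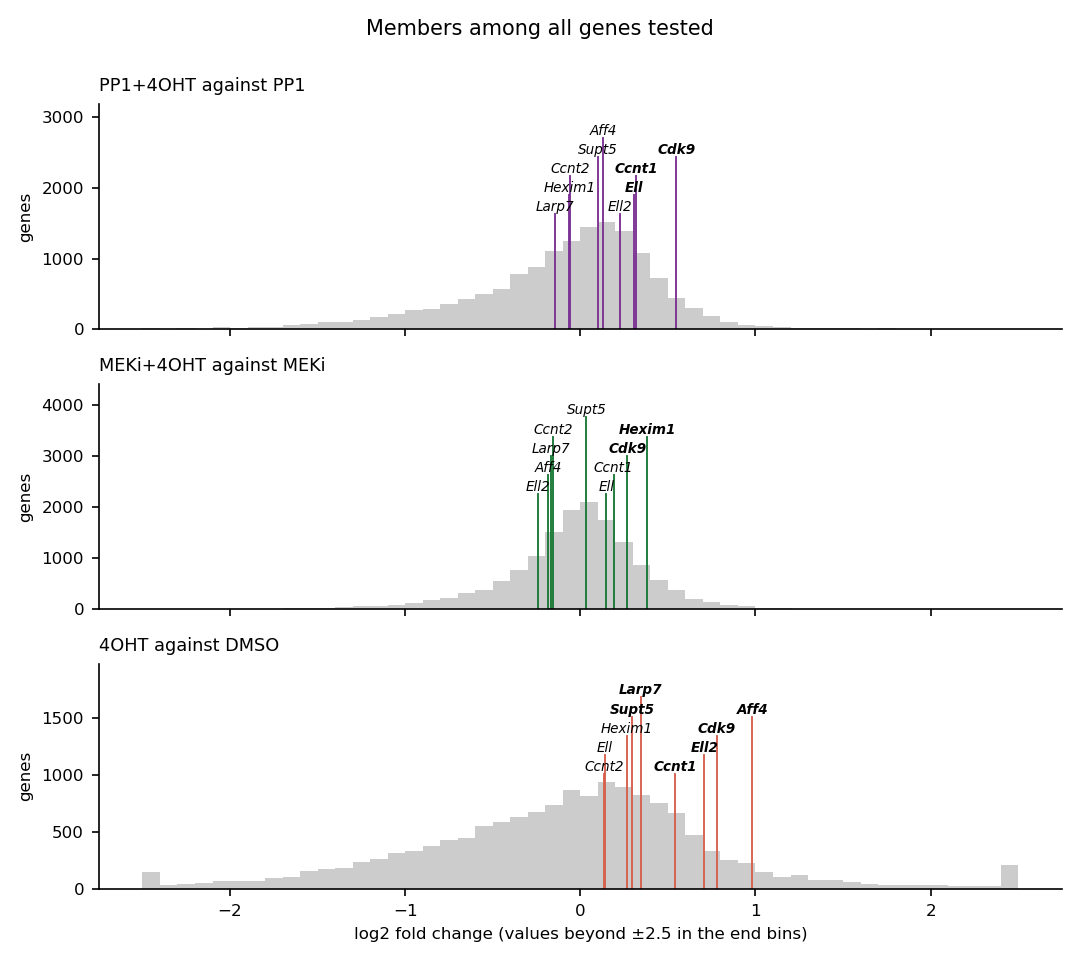
Log2 fold changes of the 9 genes (lines, names in bold where called) over the distribution of all 14907 genes tested (grey, number of genes per bin of 0.1), for PP1+4OHT against PP1, MEKi+4OHT against MEKi and 4OHT against DMSO. Without inhibitor all 9 genes lie above 0 and Aff4 is the farthest right at 0.98, while with MEKi they lie between -0.24 and 0.38.

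At matched 4OHT, the inhibitors lowered most of these genes. Between MEKi+4OHT and 4OHT libraries 7 of 9 were lower, all but Hexim1 (-0.10) and Ell (0.02), where 28.4% of all genes were lower and 28.4% higher, 56.8% together. Aff4 fell to 0.456 of its 4OHT level (log2 -1.13 ± 0.07, adjusted p = 9.6e-13), Ell2 to 0.469 (-1.09 ± 0.09, adjusted p = 3.6e-10) and Larp7 to 0.587 (-0.77 ± 0.10, adjusted p = 1e-06). Cdk9 differed by -0.70, Ccnt1 by -0.53, Supt5 by -0.32 and Ccnt2 by -0.27, and all 7 were lower in 3 of 3 clones. Between PP1+4OHT and 4OHT libraries 8 of 9 were lower, all but Ell (0.01), where 20.5% of all genes were lower and 21.4% higher, 41.8% together. Aff4 fell to 0.543 of its 4OHT level (-0.88 ± 0.07, adjusted p = 2.9e-10) and Ell2 to 0.611 (-0.71 ± 0.09, adjusted p = 7.9e-07), and the other 6 differed by -0.23 to -0.48. The Hexim1 call here (-0.35, adjusted p = 0.022) held in 3 of 6 fits that left out 1 library, and that of Supt5 (-0.23, adjusted p = 0.012) was lost without 4OHT clone b (0.072). These comparisons share the 4OHT libraries.

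Of the inhibitors given with 4OHT, PP1 left 4 genes higher than MEKi and none lower, where 15.2% of all genes were higher and 13% lower, 28.2% together. Cdk9 was 1.33-fold higher (log2 0.41 ± 0.09, adjusted p = 0.00087), Ell2 1.30-fold (0.38 ± 0.09, adjusted p = 0.0026), Larp7 1.22-fold (0.28 ± 0.11, adjusted p = 0.046) and Aff4 1.19-fold (0.25 ± 0.07, adjusted p = 0.0067), each in 3 of 3 clones. The Larp7 call held in 2 of 6 fits that left out 1 library. Without MEKi+4OHT clone b the calls of Larp7 (0.22, adjusted p = 0.19) and Aff4 (0.22, adjusted p = 0.056) were lost, and 2 of the 4 calls remained.

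Without 4OHT, no member passed with either inhibitor. Between MEKi and DMSO the differences ran from -0.26 (Larp7) to 0.03 (Aff4) on the log2 scale, where 0.53% of all genes were called (0.0805% higher, 0.449% lower). Between PP1 and DMSO they ran from -0.23 (Ell2) to 0.00 (Larp7), where 0.241% were called (0.0805% higher, 0.161% lower), and between PP1 and MEKi from -0.18 (Ell) to 0.26 (Larp7), where 0.0738% were called. By edgeR at an unadjusted p under 0.05 there were 2 (Ccnt1 and Larp7), 2 (Ccnt1 and Ell2) and 1 (Larp7) in these comparisons, and DESeq2 and limma-voom also called 0.

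The groups can be ranked for each gene by their means, and few neighbours stand apart. For Cdk9 the order was 4OHT (78.0 ± 7.59 CPM, SD), PP1+4OHT (63.6 ± 2.58), MEKi+4OHT (47.7 ± 0.758), DMSO (45.4 ± 2.13), PP1 (43.9 ± 4.00) and MEKi (39.6 ± 2.21), with no overlap between 4OHT and PP1+4OHT or between PP1+4OHT and MEKi+4OHT, while the lowest MEKi+4OHT and the highest DMSO library were both at 46.9 CPM. For Aff4 it was 4OHT (639.0 ± 42.5 CPM), PP1+4OHT (347 ± 2.58), MEKi (331 ± 6.16), DMSO (324 ± 24.5), PP1 (317 ± 23.1) and MEKi+4OHT (291 ± 13.1), and from MEKi down each group overlapped the next. The 4OHT group was first for all members but Ell, where MEKi+4OHT (101 ± 7.01 CPM), PP1+4OHT (99.9 ± 4.62) and 4OHT (99.2 ± 2.70) overlapped. The MEKi+4OHT group was last for Ccnt2, Larp7, Ell2 and Aff4, and MEKi alone for Cdk9, Hexim1 and Supt5.

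A ratio of counts within 1 library needs no scaling between libraries. The pairs were chosen after the values were seen, so the ratios are a description. Aff4 had 6.80, 6.63 and 5.90 counts per count of Ell in 4OHT libraries, against 3.79 and 3.39 in DMSO libraries, and PP1+4OHT (3.32 to 3.56) and MEKi+4OHT libraries (2.83 to 2.98) were below all 4OHT libraries. Ell2 per Ell was 1.95, 1.82 and 1.80 with 4OHT, against 1.25 and 1.26 with DMSO. The ratio of the kinase to its inhibitor, Cdk9 per Hexim1, was 1.43, 1.26 and 1.33 in PP1+4OHT libraries, 0.852, 0.888 and 0.790 in MEKi+4OHT libraries and 1.35, 1.32 and 1.19 in 4OHT libraries, against 0.812 to 0.941 with PP1, 0.841 to 1.03 with MEKi and 0.885 to 0.916 with DMSO. All 4OHT and PP1+4OHT libraries thus had a higher Cdk9 to Hexim1 ratio than any library of the other 4 groups, and as the genes differ in length the ratio does not say which RNA was more abundant. Ccnt1 per Ccnt2 was 1.31, 1.33 and 1.31 in 4OHT libraries, against 0.902 and 1.10 in DMSO libraries. A ratio shows that 2 genes changed unequally and not which of them moved.

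**Figure D4:**
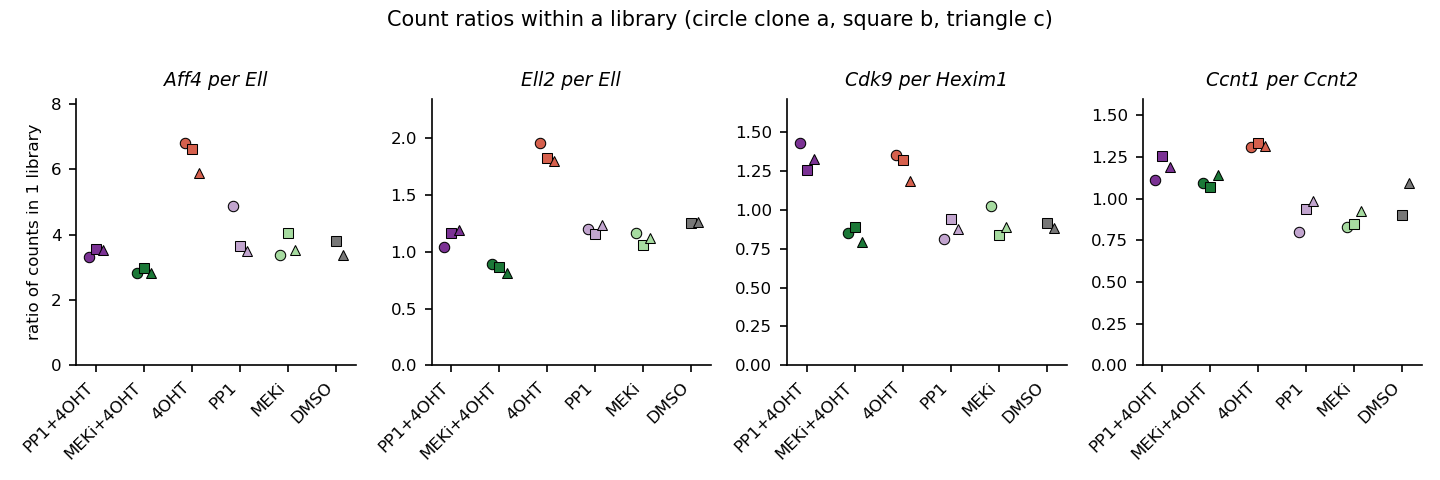
Ratio of the counts of 2 genes within each library, for Aff4 per Ell, Ell2 per Ell, Cdk9 per Hexim1 and Ccnt1 per Ccnt2 (1 point per library, symbols mark clones, axes start at 0). Cdk9 per Hexim1 is high in both PP1+4OHT (1.26 to 1.43) and 4OHT libraries (1.19 to 1.35), while Ell2 per Ell is high in 4OHT libraries alone (1.80 to 1.95).

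How libraries are scaled decides how many of these genes count as higher. Scaled by library totals alone, all genes had a median of -0.32 on the log2 scale between 4OHT and DMSO, and 2 of the 6 calls remained, Aff4 (0.68, adjusted p = 0.0016) and Cdk9 (0.47, adjusted p = 0.012). Ell2 (0.41, adjusted p = 0.12), Ccnt1 (0.25, adjusted p = 0.33) and Larp7 (0.05, adjusted p = 0.85) lost theirs, and Supt5 turned to -0.013 (adjusted p = 0.96). Relative to the shifted median the values were nearly those of the TMM fit, at 1.00 for Aff4, 0.79 for Cdk9, 0.73 for Ell2, 0.56 for Ccnt1 and 0.30 for Supt5. A change of scaling shifts all genes nearly alike, so this likeness is built in and does not bear on the calls. In the PP1 arm scaling by library totals alone moved the median of all genes to 0.12. Cdk9 kept its call there (0.68, adjusted p = 0.0015) while Ccnt1 (adjusted p = 0.080) and Ell (0.099) lost theirs. In the MEKi arm this scaling moved the median to 0.17, and Cdk9 (0.44, adjusted p = 0.044) and Hexim1 (0.56, adjusted p = 0.015) kept theirs. At matched 4OHT, library totals left 4 of the 7 lower calls for MEKi+4OHT against 4OHT and 2 of the 8 for PP1+4OHT against 4OHT. Of the 6 lower effects under MEKi than without inhibitor 1 remained (Aff4, -0.70, adjusted p = 0.014), and Hexim1 passed as higher (0.59, adjusted p = 0.026), and of the 3 under PP1 none remained by edgeR. Rises and falls are therefore changes relative to the bulk of genes, and whether total new RNA changed cannot be told from these counts.

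Across the 17 libraries the members' log2 CPM values differed in how far they went together, given as a description since all share the 6 treatments. Pearson's r was 0.92 for Aff4 with Ell2, 0.87 for Cdk9 with Supt5 and 0.86 for Cdk9 with Ccnt1, and it was 0.26 for Cdk9 with Ccnt2, 0.01 for Hexim1 with Ell and -0.12 for Larp7 with Ell. Among 9590 other genes, those whose pattern was most like that of Cdk9 were Arpc5 and Ythdf1 (r = 0.979 each), Sf1 (0.978) and Jmjd6 (0.975). For Aff4 they were Grb10 (0.987), Nup98 (0.985), Nup160 and Celf1 (0.983 each) and Psme4 (0.982). The 4 named for Cdk9 had 4OHT effects of 0.40 to 0.77 in PP1-treated cells, on the log2 scale, and the 5 named for Aff4 had -0.03 to 0.16. As these genes were picked by r over the same libraries, such effects follow from the choice and are no separate evidence.

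Related factors, from lists written from general knowledge, were read in the same fits. Among 8 genes tested that form or open the 7SK particle or recruit P-TEFb, 6 were higher and 1, Brd3 (-0.47), lower with 4OHT over DMSO (median log2 0.46), where 25.7% of all genes were higher and 26.3% lower. Of the 6 higher calls, 2 were lost in some fits that left out 1 library, and neither is among those named here. They were led by Brd2 (1.87), a bromodomain gene with 1114, 1273 and 1247 CPM in 4OHT libraries against 310 and 355 CPM in DMSO libraries, which do not overlap. Ddx21 (0.98), a helicase that frees P-TEFb from 7SK, Jmjd6 (0.94), which acts in pause release, and Ppm1g (0.53), a phosphatase that releases P-TEFb, followed. With PP1, 3 rose and none fell (Jmjd6 0.60, Ddx21 0.55, Brd2 0.42), against 18.4% of all genes higher. With MEKi 1 passed as higher, against 7.65% of all genes, Jmjd6 (0.38), and its call held in 1 of 6 fits that left out 1 library (adjusted p up to 0.18). Under library totals the counts over DMSO were 3 higher and 1 lower.

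In the super and little elongation complexes 3 of 10 were higher and 3 lower over DMSO (median -0.08), shares near the 25.7% higher and 26.3% lower of all genes. Eaf1, a partner of ELL, rose (1.41), as did Mllt1 (0.54), which encodes the reader ENL, whereas Mllt3 (-1.60), which encodes its paralogue AF9, and Ice2, of the little elongation complex (to 0.498 of its DMSO level), fell. The highest 4OHT library of Mllt3 (22.2 CPM) lay below its lowest DMSO library (53.9 CPM). With PP1, 2 rose and 2 fell (Mllt1 0.50, Eaf1 0.49, Mllt3 -0.79, Aff1 -0.58), and with MEKi 1 rose and 2 fell (Mllt1 0.28, Mllt3 -0.47, Aff3 -0.68). Mllt3 fell in all 3 arms, though in the MEKi arm its call held in 2 of 6 fits that left out 1 library, and that of Mllt1 in 3 of 6. Of all genes, 18.4% were higher and 12.8% lower with PP1, and 7.65% higher and 7.03% lower with MEKi. Under library totals 1 was higher and 3 lower over DMSO.

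Of 6 DSIF, NELF and pausing genes, 3 rose over DMSO and none fell (median 0.32), namely Nelfb (0.40), Nelfa (0.35) and Supt4a (0.28), the small DSIF subunit, where 25.7% of all genes were higher. The call of Supt4a was lost without 4OHT clone b (adjusted p = 0.061) and that of Nelfb without DMSO clone b (0.060). With PP1 2 rose (Supt4a 0.47, and Nelfb 0.33, in 3 of 6 fits that left out 1 library), against 18.4% of all genes, and with MEKi 0 of 6 passed by edgeR. Of 13 genes of the PAF complex, SPT6, FACT and TFIIS, which travel with the polymerase, 9 rose and 1 fell (median 0.30), among them Supt6 (0.85), Rtf1 (0.58), Ctr9 (0.53) and Iws1 (0.49). Of these 10 calls, those of Tcea1 and Tcea3 were lost in some fits that left out 1 library. With PP1 6 rose, among them Rtf1 (0.47), Wdr61 (0.44), Leo1 (0.34) and Cdc73 (0.30), while Ctr9 and Supt6 held in 1 of 6 such fits each. With MEKi 3 passed as higher and 1 as lower. Of these Leo1 (0.33) held in all 6 fits, Ctr9 and Rtf1 in 1 of 6 each, and Tcea3, the lower 1, in 2 of 6. The shares of all genes given above for each arm are the background of these counts. Of 9 other transcription kinases and cyclins, 5 rose and none fell (median 0.42), namely Ccnc (1.34), the cyclin of the Mediator kinase, Cdk7 (0.49), Cdk12 (0.46), Ccnk (0.42) and Cdk13 (0.41). With PP1 3 rose (Ccnc 0.47, Cdk7 0.38 and Ccnk 0.30) and 1 fell (Cdk19 -0.27). With MEKi 0 rose and 1 fell, Cdk12 (-0.26), in all 6 fits that left out 1 library. The same shares of all genes are the background here. Cdk8 is 1 of the 14 high-count loci and was not called. Under library totals these 3 lists had 0, 1 and 1 genes higher and 1, 1 and 1 lower over DMSO. With the 14 high-count loci also removed, a setting chosen after seeing the data, they had 0, 4 and 3 higher and 1, 1 and 2 lower. How many of their genes pass as higher thus depends on the scaling, as it does for the members. Rn7sk, the 7SK RNA itself, was not analysed here.

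**Figure D5:**
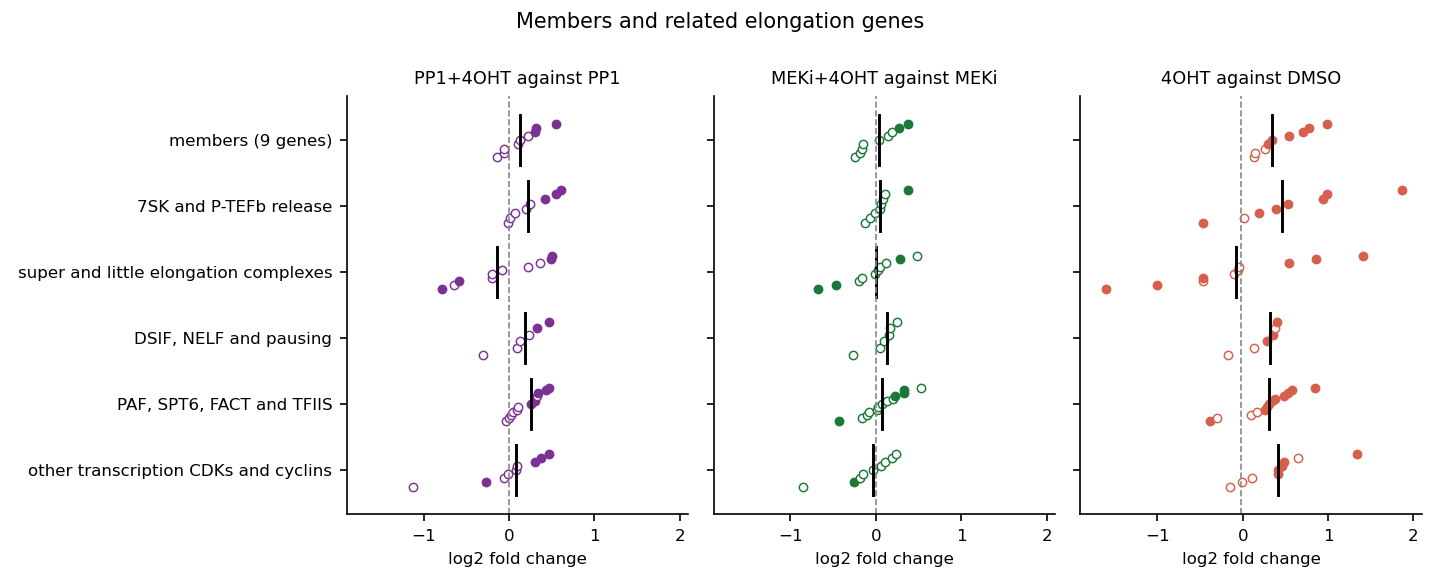
Log2 fold changes of the 9 members and of 5 lists of related elongation genes (1 point per gene, filled where called, black bars the list median, dashed line the median of all genes), for PP1+4OHT against PP1, MEKi+4OHT against MEKi and 4OHT against DMSO. The medians without inhibitor are above the all-gene line for every list but the super and little elongation complexes (-0.08), whose genes spread from -1.60 to 1.41.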

How the data were processed

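The deposited table holds counts per gene symbol for 17 libraries, whole numbers with differing totals, deposited by the authors with no sign of normalization. The submitters' processing notes name STAR, featureCounts and the build mm10. Versions, annotation, feature type, strand use and how reads mapping to several places were handled: not given in the sources used here. All 17 columns were used. No row for unassigned reads was found, and 13 mitochondrial symbols had 0 counts.

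The members and lists were chosen with earlier results of these data known. The main test used edgeR 4.0.16 under R 4.3.3 (TMM, and filterByExpr on the groups, which left 14907 genes, a robust quasi-likelihood model over all 17 libraries, 1 mean per group, 11 residual degrees of freedom, common biological coefficient of variation 0.0977). Of 12 comparisons, 9 set 2 groups against each other and 3 were interactions, each a 4OHT effect minus another. Genes were called where p, adjusted by Benjamini and Hochberg's method over all genes, was under 0.05. All 9 members passed the filter, with counts between 146 (Larp7) and 6870 (Aff4). The SE is the absolute log2 fold change over the square root of F, an approximation. The fit was tried on simulated data in which few genes changed, so that trial does not bear on the scaling or the calls here. Log2 CPM for correlations used a prior count of 2.

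All 9 members are named in each comparison, called or not. Related genes are named as up to 4 called genes of smallest adjusted p per list in each comparison of 4OHT with its control. Others are named because their call was lost in some fits that left out 1 library. Brd3, Ccnk, Tcea1 and the markers Nanog, Tdgf1, Esrrb, Zfp42, Cdx2, Nes and Pax6 were chosen after their values were seen. Genes of like pattern are those among the 5 of highest r, of which 1 for Cdk9 is not reported here. Promoters are those of the called members with the largest and next largest rise, and 2 added later. Lists matched 9 of 10, 11 of 11, 6 of 6, 13 of 13 and 9 of 9 symbols in the table.

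The labels name the clones a, b and c in every group but DMSO (b and c), so clone was tried as a replicate block. Same-clone libraries deviated from their group means with a mean r of 0.0859 (40 pairs, 16 over 0.1), and libraries of different clones with -0.0425 (80 pairs). Alternatives were DESeq2 size factors in edgeR, library totals, TMM without the 14 high-count loci (mean count of at least 1000 and r of at least 0.95 with Cdk8), no filter, a stricter filter (10 counts or more throughout 1 group), limma-voom (limma 3.58.1), DESeq2 1.42.0, the clone block, only the groups compared, each library left out, MEKi clone a and MEKi+4OHT clone b both left out, and a change of at least 1.5-fold. Library totals after removing the 14 loci was chosen after seeing the data. Promoter sequences come from RefSeq (GRCm38.p6), in which all 9 genes matched.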

Additional observations from a re-analysis of the deposited data

Results flagged for a closer look

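For 11 results the 4OHT effect differed between arms by a test of the difference itself (edgeR quasi-likelihood interaction, adjusted over 14907 genes). The members' counts are to be read against 19.3% of all genes for which the effect under MEKi was lower than without inhibitor, 11.4% for PP1 and 7.41% for a higher effect under PP1 than under MEKi. Under MEKi compared with no inhibitor, the log2 difference of effects was -1.16 for Aff4, -0.95 for Ell2, -0.51 for Cdk9, -0.51 for Larp7, -0.35 for Ccnt1 and -0.29 for Ccnt2. Under PP1 compared with no inhibitor it was -0.85 for Aff4, -0.49 for Larp7 and -0.48 for Ell2. Under PP1 compared with MEKi it was 0.47 for Ell2 and 0.32 for Aff4. These contrasts share libraries, so they are not independent of each other. The groups are too small (2 or 3 libraries) for single libraries to be examined as outliers.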

How the results depend on the processing

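The number of members called depended on the scaling and the threshold. Asking also for a 1.5-fold change left 3 of 6 calls for 4OHT against DMSO, 0 of 2 for MEKi+4OHT against MEKi, 0 of 3 for PP1+4OHT against PP1, 4 of 7 for MEKi+4OHT against 4OHT, 2 of 8 for PP1+4OHT against 4OHT and 0 of 4 for PP1+4OHT against MEKi+4OHT, and for the effect under MEKi minus none 2 of 6, PP1 minus none 1 of 3 and PP1 minus MEKi 0 of 2. Library totals gave, for the same comparisons where the count moved by over 1.5 times, 2, 1 (PP1 arm), 4, 2 and 0, and 2, 0 and 0 for the 3 differences of effects, where the 2 held 1 of the 6 first called. With the 14 loci also removed, a setting chosen after seeing the data, the count for 4OHT against DMSO was 4. It was 4 for PP1+4OHT against 4OHT, 2 for the effect under MEKi minus none and 1 for PP1 minus MEKi. No filter gave 1 for the MEKi arm and 1 for PP1 minus MEKi, only the groups compared gave 1 for PP1 minus MEKi, and leaving out MEKi clone a and MEKi+4OHT clone b gave 0 for the MEKi arm, 2 for PP1+4OHT against MEKi+4OHT and 0 for PP1 minus MEKi. Directions turned under library totals for Supt5 in 4OHT against DMSO (-0.013), MEKi+4OHT against 4OHT (0.033) and PP1+4OHT against 4OHT (0.0025), for Ccnt2 in MEKi+4OHT against 4OHT (0.072, and 0.028 with the loci removed), and for Ccnt1 (0.11) and Ccnt2 (0.17) in the effect under MEKi minus none. Under the same scaling the median of all genes reached 0.48, in the effect under MEKi minus none. Leaving out 1 library gave 6 to 7 members for 4OHT against DMSO, 0 to 2 for the MEKi arm, 2 to 4 for the PP1 arm, 6 to 8 for PP1+4OHT against 4OHT, 2 to 4 for PP1+4OHT against MEKi+4OHT, 5 to 7 for MEKi minus none, 2 to 5 for PP1 minus none and 0 to 2 for PP1 minus MEKi. With clone as a replicate block the counts were 7 for 4OHT against DMSO, 4 for the PP1 arm and 7 for MEKi minus none, and in no other comparison did the count change. Over the members' log2 values and the alternatives, 1706 kept direction and side of the threshold, 97 lost and 38 gained a call, 105 values with no call under either setting changed sign and 7 with a call under one of them did. Genes called over the whole table under library totals numbered 1130 against 2188 for the MEKi arm (1051 without MEKi clone a and MEKi+4OHT clone b), 2668 against 4661 for the PP1 arm, 2153 against 4199 for PP1+4OHT against MEKi+4OHT and 514 against 1829 for PP1 minus MEKi. Over the alternatives they ran from 19 to 132 (79 in the main test) for MEKi against DMSO, from 3 to 85 (36) for PP1 against DMSO and from 3 to 20 (11) for PP1 against MEKi. With 2 or 3 clones a group, small changes may have been missed, most for genes of few counts such as Larp7 (146 at the lowest).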
